A study of Mus musculus with 50 samples.

Results

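The genes described here are 10 genes that the cells of the kidney's proximal tubule use to take back solutes and proteins from the filtrate and to handle them afterwards. They were chosen by name, as Slc5a2, Slc2a2, Slc5a8, Slc5a12, Slc4a4, Slc9a3, Slc13a1, Lrp2, Cubn and Agxt2, and all 10 were found among the 24984 genes of the count tables. The series measured gene expression by RNA-seq in 38 libraries and open chromatin by ATAC-seq, which maps the stretches of DNA that a transposase can reach, in 12 libraries, to follow ageing in kidney and liver. The mice were of the strain C57BL/6 and untreated in the age comparison, aged 2.5 months when young and 23 to 25 months when old, and each combination of tissue and age had 4 RNA-seq and 3 ATAC-seq libraries. RNA-seq also covered kidney and liver of C57BL/6 mice aged 20 to 21 months that received the solvent DMSO or a treatment named 3C (4 libraries each), and skin fibroblasts labelled P9 with DMSO or 3C (3 libraries each). What 3C is, and how long the mice received it, is not given in the sources used here. The DMSO mice were aged animals, so the 3C comparison was made wholly within old age. The study's methods give female mice for the young and old groups. The labels number the libraries of a group but do not say that each came from a separate animal, so the p-values below measure the spread between these libraries, part of which may be technical.

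The proximal tubule reclaims most of the filtered glucose, bicarbonate, amino acids and protein. Transporters in its brush border use the inward sodium gradient, which the basolateral sodium pump maintains, to carry solutes into the cell, and carriers on the basolateral side pass them on to the blood. Filtered proteins are taken up by endocytosis through the large receptors megalin and cubilin.

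Levels are given in CPM (counts-per-million) after TMM scaling, which corrects for differences in library composition. Scaling was done within each tissue, for the young and old libraries together and for the DMSO and 3C libraries together, so CPM levels of different tissues or of these 2 sets are not on a common scale. Total counts per library were 14238228 to 43704147, and the smallest summed member count of a kidney group was 2520 reads (Slc9a3 in DMSO kidney), so counting error was small beside the spread between libraries. Tissue identity was visible in the libraries. The summed level of 8 hepatocyte markers was 71787 to 203970 CPM in liver, and 354 to 596 CPM in 15 of the 16 kidney libraries, with 3966 CPM in old kidney replicate 2, which thus carried hepatocyte transcripts. The kidney libraries held all 5 markers of the thick ascending limb and distal tubule, at a summed 7636 to 10570 CPM. The young and old kidney libraries also differed in the balance of long and short transcripts. Their index, the median log2 deviation of 2466 genes with over 8 kb of exon minus that of 2069 genes under 2 kb, was 0.58, 0.50, 0.25 and -0.25 in young replicates 1 to 4 and -0.57, 0.36, -0.85 and -0.09 in old replicates 1 to 4, whereas it lay between -0.09 and 0.07 in the 8 DMSO and 3C kidney libraries.

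Compared per kb of exon within young kidney, Lrp2 had the highest level (189 ± 58.2 CPM per kb, SD, n = 4), followed by Slc5a2 (162 ± 17.6), Slc5a12 (145 ± 19.9) and Slc4a4 (111 ± 24.9). The libraries' ranges of neighbours in this order overlapped among these 4 genes. A step without overlap separated them from Slc13a1 (51.2 ± 7.45), Cubn (45.2 ± 9.88), Agxt2 (41.4 ± 3.42) and Slc2a2 (35.2 ± 4.04), whose neighbours again overlapped. Slc5a8 (25.8 ± 2.99) and Slc9a3 (11.7 ± 3.49) came last, each apart from the gene above it.

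In old kidney 6 of the 10 genes were lower than in young kidney and 0 were higher. They were Agxt2, Slc5a8, Slc5a12, Slc4a4, Slc2a2 and Slc5a2, with fitted folds of 0.437 to 0.701. This is at an adjusted p under 0.05 in edgeR's quasi-likelihood test with Benjamini-Hochberg adjustment over 14495 genes, of which 3.36% were called lower and 8.15% higher by the same rule. Agxt2, Slc5a8 and Slc5a12 also passed a fold of 2, against a background of 0.407% of genes lower. In the same 6 genes every old library lay below every young library, a pattern that 6.91% of all genes showed. The median log2 fold change of the 10 genes was -0.92, beside 0.02 over all genes tested. These are whole-kidney samples, in which fewer proximal tubule cells and less RNA per cell cannot be told apart. Other cell types moved with age in the same libraries. All 7 leukocyte markers rose, with a summed level of 53.4 to 65.6 CPM in young and 734 to 1146 CPM in old kidney, and 4 of 6 markers of injured tubule rose, with a summed level of 1838 to 2114 and 2899 to 4533 CPM. The collecting duct and the thick ascending limb and distal tubule had 1 marker of 5 lower each, and no marker of podocytes (of 4), endothelium (of 5), stroma (of 5) or hepatocytes (of 6 tested) passed the test. The 5 markers of proximal segment S3 summed to 731 to 895 CPM in young and 609 to 761 CPM in old kidney, and none of them passed the test. The part of these shifts in the results was not tested.

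**Figure D1:**
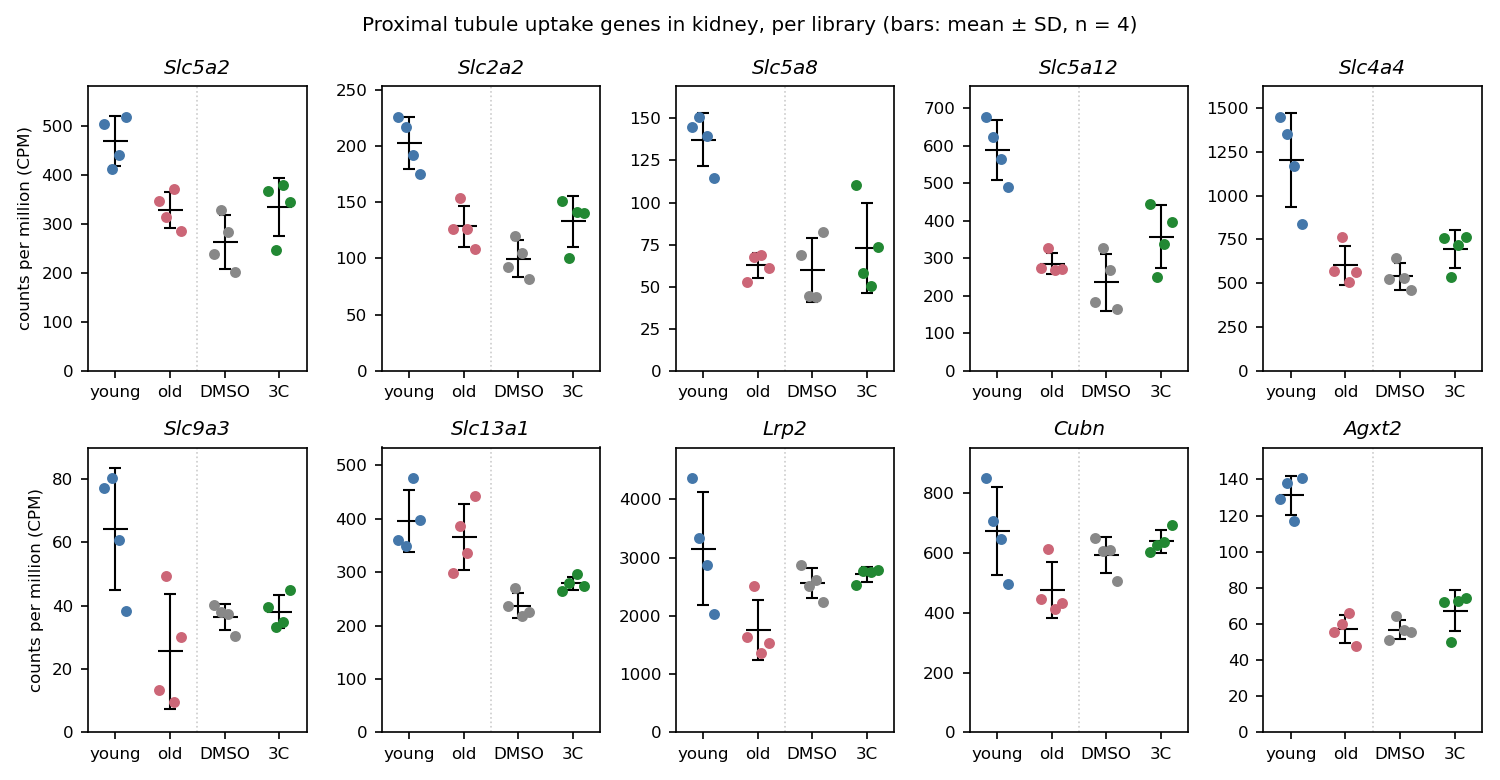
Level of each of the 10 genes in CPM (vertical axes from 0) in every kidney library, with young and old on the left of the dotted line and DMSO and 3C on the right. Points are libraries and bars are the mean ± SD (n = 4). Young and old points do not overlap for Slc5a2, Slc2a2, Slc5a8, Slc5a12, Slc4a4 and Agxt2, and DMSO and 3C points overlap for all 10 genes.

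The sodium-glucose cotransporter Slc5a2 (SGLT2, chr7:128265657-128272430 in GRCm38) carries filtered glucose across the brush border. Its level was 504, 411, 441 and 519 CPM in the young kidney libraries and 346, 313, 370.1 and 286 CPM in the old ones. The groups did not overlap, and the mean went from 469 ± 51.1 to 329 ± 37.0 CPM (SD, n = 4 each). The log2 fold change was -0.51 (SE 0.12, edgeR adjusted p = 0.0272). This call was lost when young replicate 1 or 3 or old replicate 1 or 4 was left out (adjusted p from 0.0538 to 0.09). Of the exon length of Slc5a2, 20.6% is shared with BC017158, and the counting did not use strand, so reads in that stretch could not be assigned to either gene with certainty. The glucose exit carrier Slc2a2 (GLUT2, chr3:28697903-28731359) passes glucose on through the basolateral membrane. It was at 226, 217, 192 and 175 CPM in young and 126, 153, 126 and 109 CPM in old kidney, again without overlap. Its log2 fold change was -0.66 (SE 0.13, edgeR adjusted p = 0.0118). Entry and exit carriers of glucose were thus both lower in old kidney.

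The sodium-coupled monocarboxylate transporters Slc5a8 (SMCT1, chr10:88885992-88929515) and Slc5a12 (SMCT2, chr2:110597298-110647779) take up lactate and related acids from the filtrate. Slc5a8 was at 145, 151, 139 and 115 CPM in young kidney and at 52.7, 67.9, 68.9 and 61.3 CPM in old kidney. The lowest young library was well above the highest old one, and the log2 fold change was -1.13 (SE 0.13, edgeR adjusted p = 0.00098). Slc5a12, the more abundant of the pair per kb, was at 678, 624, 564 and 490.0 CPM in young and 276, 327, 270.0 and 272 CPM in old kidney. The old libraries 1, 3 and 4 lay within a few CPM of each other and replicate 2 stood above them, still below all young libraries. Its log2 fold change was -1.04 (SE 0.13, edgeR adjusted p = 0.00144).

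Acid-base and sodium handling were covered by Slc4a4 and Slc9a3. Slc4a4 (NBCe1, chr5:88886818-89239653) is the basolateral sodium bicarbonate cotransporter that returns reclaimed bicarbonate to the blood. Its level was 1452, 1351, 1168 and 839 CPM in young and 572, 765, 507 and 566 CPM in old kidney, without overlap. The log2 fold change was -0.9971 (SE 0.19, edgeR adjusted p = 0.0095), just inside a fold of 2, so Slc4a4 was not counted among the genes past that fold. Slc9a3 (NHE3, chr13:74121457-74169442) is the brush-border sodium/proton exchanger. It was at 77.2, 80.3, 60.7 and 38.4 CPM in young kidney and 13.3, 49.3, 9.66 and 30.1 CPM in old kidney. Old replicate 2 lay above young replicate 4, so the groups overlapped. Its fitted log2 fold change of -1.32 was the lowest of the 10 genes but also the least precise (SE 0.46, edgeR adjusted p = 0.0918).

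Slc13a1 (NaS1, chr6:24088283-24168092), the brush-border sodium sulfate cotransporter, was at 359.8, 349, 476 and 397 CPM in young and 299, 386, 336 and 442 CPM in old kidney. The 2 groups overlapped through most of their range, and the log2 fold change was -0.11 (SE 0.15, edgeR adjusted p = 0.643).

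Neither endocytic receptor passed the adjusted p in the edgeR fit used above, with all libraries. Lrp2 (megalin, chr2:69424340-69586065) was at 4368, 3338, 2872 and 2038 CPM in young and 1631, 2511, 1368 and 1534 CPM in old kidney. Its partner Cubn (cubilin, chr2:13276338-13491813) was at 850.4, 708, 645 and 494 CPM in young and 446, 615, 411 and 433 CPM in old kidney. In both genes young replicate 4 lay below old replicate 2, and all other young libraries lay above all old ones. The log2 fold changes were -0.84 for Lrp2 (SE 0.25, edgeR adjusted p = 0.0603) and -0.50 for Cubn (SE 0.19, adjusted p = 0.109). Without old replicate 2 the edgeR adjusted p fell to 0.0134 for Lrp2, 0.0267 for Cubn and 0.0113 for Slc9a3, and 9 of the 10 genes were then called, beside 12.2% of all genes lower in that setting against 3.36% with all libraries. Without young replicate 4 it was 0.0254 for Lrp2 and 0.0422 for Cubn, with 8 genes called, beside 5.57% of all genes lower. Young replicate 4 had the lowest length index of its group and old replicate 2 the highest of its own. The exons of Lrp2, Cubn and Slc9a3 span 16701, 14935 and 5504 bp. The part of the length index in these calls was not tested.

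**Figure D2:**
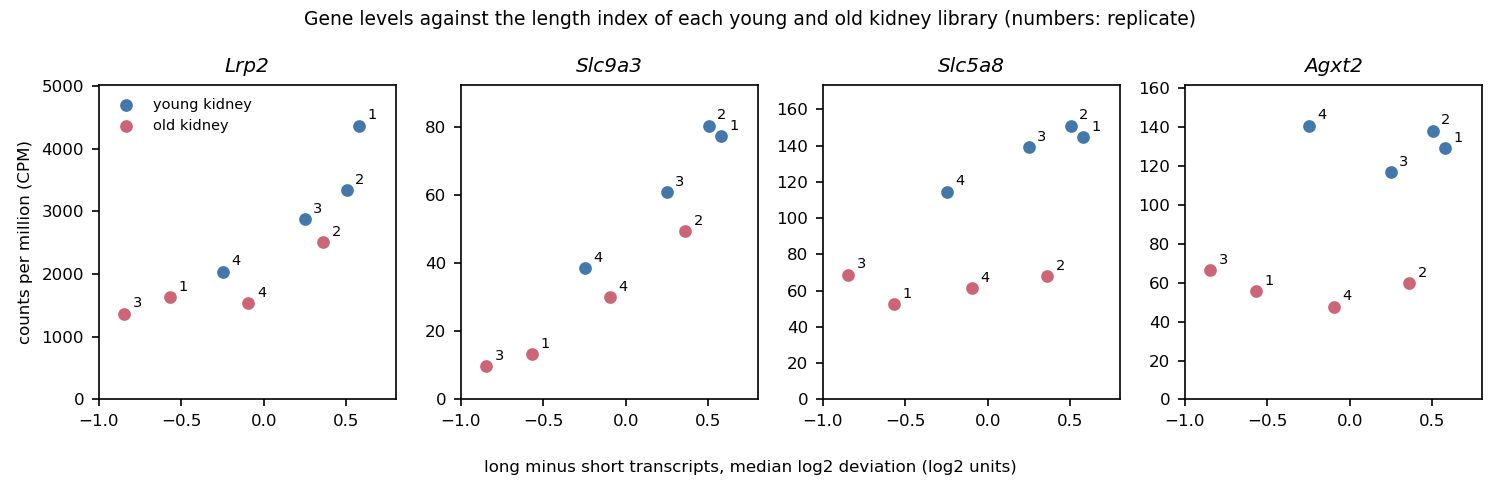
Level in CPM (vertical axes from 0) of Lrp2, Slc9a3, Slc5a8 and Agxt2 against the length index of each library (horizontal axis, log2 units) in the 4 young and 4 old kidney libraries, numbered by replicate. The 2 libraries with the lowest index have the lowest Slc9a3 levels (9.66 and 13.3 CPM) and the one with the highest index the highest Lrp2 level (4368 CPM). Agxt2 lies between 117 and 141 CPM in young libraries (index -0.25 to 0.58) and between 47.7 and 66.3 CPM in old ones (index -0.85 to 0.36). The part of the index in these levels was not tested.

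When each library was first corrected for its trend with the exon length and the GC content of the genes, 8 of the 10 genes were called lower, beside 15.2% of all genes. That setting moved the median log2 fold change of all genes from 0.02 to -0.11. Slc9a3 then had a log2 fold change of -1.44 (SE 0.39, edgeR adjusted p = 0.0239) and Lrp2 one of -0.53 (SE 0.13, adjusted p = 0.0182). Cubn moved to -0.16 (SE 0.12) and Slc13a1 to 0.04 (SE 0.16), neither past the test, and the sign of Slc13a1 turned. DESeq2 called 9 of the 10 genes lower, all but Slc13a1, beside 9.56% of all genes. With it 5 of the 10 also passed a fold of 2, beside 105 of all 14495 genes lower by both rules. Agxt2, Slc5a8, Slc5a12, Slc4a4 and Slc2a2 were past the adjusted p in each of the 16 alternative fits, Slc5a2 in 11, Lrp2 in 5, Slc9a3 in 4, Cubn in 3 and Slc13a1 in none.

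Agxt2 had the smallest p of the 10 genes. It encodes a mitochondrial aminotransferase that breaks down dimethylarginines and beta-aminoisobutyrate, and is the one enzyme of the group. The gene lies at chr15:10358532-10410153 and shares 4.9% of its exon length with Gm21973. It was at 129, 138, 117 and 141 CPM in young kidney and 55.5, 59.8, 66.3 and 47.7 CPM in old kidney, so the lowest young library was well above the highest old one. The mean went from 131 ± 10.8 to 57.3 ± 7.80 CPM (SD, n = 4 each), and the log2 fold change was -1.20 (SE 0.12, edgeR adjusted p = 0.000795). Over the alternative fits it stayed between -1.37 and -1.12. Liver expresses Agxt2, Slc2a2 and Slc4a4 too. Old kidney replicate 2, the library with hepatocyte transcripts, was the highest old library for Slc2a2 and Slc4a4 and the second highest for Agxt2. Among the genes at or near 0 in liver, it was also the highest old library for Slc5a12, Slc9a3, Lrp2 and Cubn. It was not the highest for Slc5a2, Slc5a8 or Slc13a1. The part of the hepatocyte transcripts in these values was not tested. Without this library the log2 fold changes were -1.22 for Agxt2, -0.75 for Slc2a2 and -1.13 for Slc4a4.

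**Figure D3:**
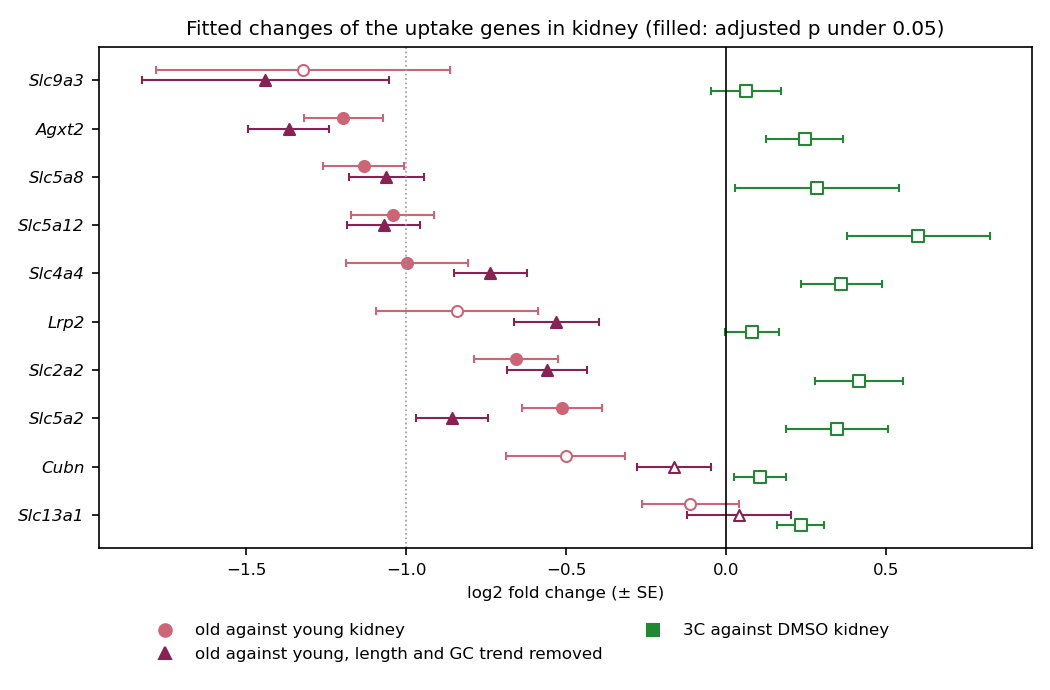
Log2 fold change ± SE (horizontal axis) of each gene in kidney, for old against young as fitted, for the same contrast corrected for exon length and GC content, and for 3C against DMSO. Filled symbols have an adjusted p under 0.05 and the dotted line marks a fold of 2. As fitted, all values for age lie below 0, with Slc13a1 at -0.11 nearest to it, and all 3C values lie above 0 with none filled.

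Other genes of the same pathways were followed in lists, whose median log2 fold changes are to be read beside 0.02 over all genes and whose counts beside the 3.36% of all genes called lower and 8.15% called higher. Among 37 further transporters of the proximal tubule, 7 were lower and 0 higher in old kidney, with a median of -0.16. The 3 with the smallest p were the sulfate/oxalate exchanger Slc26a1 (-0.64, SE 0.12), the amino acid transporter Slc6a20b (-0.46, SE 0.09) and the neutral amino acid transporter Slc6a19 (-0.85, SE 0.18), with edgeR adjusted p of 0.00696, 0.0133 and 0.0147. Among 10 partners of the endocytic receptors the adaptor Dab2 was called lower (-0.37, SE 0.10, edgeR adjusted p = 0.0386) and no other, with a median of -0.08. Of 12 genes for the sodium gradient and the brush-border scaffold, the carbonic anhydrases Car14 (-0.80) and Car2 (-0.45) were lower (edgeR adjusted p of 0.00422 and 0.019), with a median of -0.09. Of 7 tested enzymes of dimethylarginine and beta-amino acid metabolism, Ddah1 was lower (-0.40, SE 0.10) and Ddah2 higher (0.54, SE 0.13), with edgeR adjusted p of 0.0361 and 0.0282, and the median was -0.40. Ddah1 degrades asymmetric dimethylarginine, a substrate it shares with Agxt2. Of 9 transcription factors of the proximal tubule, 4 were lower and 0 higher, with a median of -0.36, among them Hnf4g (-0.91, SE 0.20), Ppara (-0.78, SE 0.17) and the bile acid receptor Nr1h4 (-0.46, SE 0.11), with edgeR adjusted p of 0.017, 0.0177 and 0.0217.

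Over the 16 kidney libraries, the patterns most like that of Agxt2 in centred log2 CPM were those of Slc18a1, Car12 and Calb1, with a mean absolute difference of 0.12, 0.14 and 0.15 log2 units beside a median of 0.43 over 13674 genes. The 3 nearest to Slc5a8 were Agps, Fbxo40 and Utp20 (0.18 to 0.21), and the 3 nearest to the mean of the 10 genes were Wdr72, Osbpl6 and Fmo2 (0.07 to 0.08). Calb1 encodes a calcium-binding protein of the distal tubule and stands in the marker list of that segment, where it was the one gene of 5 called lower in old kidney (log2 fold change -1.05, SE 0.21).

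The second kidney comparison asked how these genes stood in aged mice with 3C against aged mice with DMSO. All 10 fitted log2 fold changes were above 0, between 0.06 and 0.60, beside 51.3% of genes above 0, but none passed the adjusted p in edgeR or in DESeq2. edgeR called 0.0% of 14974 genes in this comparison, and DESeq2 called 73 genes higher and 158 lower, none of the 10 among them. Without 3C replicate 2, edgeR called 4 genes higher and 25 lower, again none of the 10. At an unadjusted p under 0.05, which 4.84% of genes met as higher, there were 4 of the 10, namely Slc13a1, Slc2a2, Slc4a4 and Slc5a12. The groups overlapped in every gene. The 10 values are not independent of each other, since they come from the same 8 libraries.

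Slc5a12 had the highest fitted value of the 10. It was at 182, 327, 270.3 and 165 CPM with DMSO and 446, 250.1, 338 and 397 CPM with 3C, a log2 fold change of 0.60 (SE 0.22, edgeR adjusted p = 0.333). Slc2a2 was at 92.7, 119.9, 105 and 81.7 CPM with DMSO and 151, 99.97, 142 and 140.0 CPM with 3C (log2 fold change 0.42, SE 0.14, edgeR adjusted p = 0.287). For Slc4a4 the values were 524, 647, 529 and 463 CPM with DMSO and 759, 535, 718 and 763 CPM with 3C (0.36, SE 0.13, edgeR adjusted p = 0.311). In these 3 genes replicate 2 was the highest DMSO library and replicate 2 was the lowest 3C library, and the other 3C libraries lay above all DMSO libraries. The same held for Slc5a2, at 239, 328, 284 and 201 CPM with DMSO and 366, 247, 379 and 345 CPM with 3C, and for Agxt2, at 51.0, 64.2, 56.7 and 55.7 CPM with DMSO and 72.4, 50.1, 72.5 and 74.6 CPM with 3C. Their log2 fold changes were 0.35 (SE 0.16) and 0.25 (SE 0.12), with edgeR adjusted p of 0.426 and 0.458.

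Slc13a1, the one gene with little difference between young and old kidney, had the smallest p of the 10 in this comparison. Its level was 237, 269.9, 217 and 225 CPM with DMSO and 265, 279.6, 296 and 274 CPM with 3C, with DMSO replicate 2 inside the 3C range. The log2 fold change was 0.23 (SE 0.07, edgeR adjusted p = 0.264). Slc5a8 spread widely within both groups, at 43.6 to 82.3 CPM with DMSO and 50.6 to 110.25 CPM with 3C. Lrp2, Cubn and Slc9a3 differed by 0.08, 0.11 and 0.06 on the log2 scale, with SEs of 0.09, 0.08 and 0.11, and their libraries were tightly grouped here, as in Lrp2 at 2243 to 2874 CPM with DMSO and 2528 to 2797 CPM with 3C.

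None of the 5 pathway lists had a gene past the adjusted p in edgeR with 3C, and at an unadjusted p under 0.05 there were 13 genes higher and 5 lower of 75 tested over these lists, beside 4.84% and 7.09% of all genes. Among the other transporters 32 of 37 had a value above 0, and among the transcription factors 8 of 9, with list medians of 0.09 and 0.31 beside 0.26 for the 10 uptake genes and 0.00 for all genes. All 7 leukocyte, 5 stroma, 5 endothelium and 4 podocyte markers had values below 0, with medians of -0.67, -0.70, -0.17 and -0.17 and none past the adjusted p. The leukocyte sum was 332 to 643 CPM with DMSO and 236 to 350 CPM with 3C, and the stroma sum 410 to 533 and 216 to 362 CPM. The part of these shifts in the values of the uptake genes was not tested.

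Liver served as the contrast, and it divided the 10 genes into 2 kinds. Agxt2, Slc2a2 and Slc4a4 were expressed there, and the other 7 were at or near 0. In young liver no read was counted for Slc5a2, Slc5a12, Slc9a3 or Slc13a1 over 4 libraries and 87747431 counts, and 5, 15 and 7 reads were counted for Slc5a8, Lrp2 and Cubn. Against a floor of 3 reads over the liver group, with TMM across both tissues, young kidney was at least 6388-fold higher for Slc5a2, at least 8157-fold for Slc5a12, at least 903-fold for Slc9a3 and at least 5313-fold for Slc13a1. These bounds cover counting error only, and they depend on the scaling, since total counts gave at least 13518-fold, 17262-fold, 1911-fold and 11244-fold. In the edgeR fit of young kidney against young liver, 8 of the 10 genes were higher in kidney, beside 35.1% of 14057 genes. The 7 genes near 0 in liver passed the filter on low counts through kidney alone and had to differ. This fit scaled the libraries of both tissues together by TMM. The size of the tissue differences depended on the scaling for all 3 genes expressed in liver. Slc4a4 was higher in kidney, by a log2 difference of 2.82 (SE 0.24, edgeR adjusted p = 5.4e-07) with TMM across both tissues, 2.29 after the correction for exon length and GC content and 3.89 with total counts as library sizes. For Agxt2 and Slc2a2 the call depended on it too, and for Agxt2 the direction. With TMM across both tissues they were lower in kidney, by log2 differences of -0.91 (SE 0.12) and -1.28 (SE 0.17), beside 30.2% of genes lower. With total counts as library sizes, chosen after seeing the data, the values were 0.17 (SE 0.14) and -0.20 (SE 0.20), neither past the test, and that scaling moved the median of all genes from 0.08 to 1.16.

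The age contrast in liver gave no call among the 3 expressed genes in edgeR or DESeq2, and none at an unadjusted p under 0.05, beside 0.558% of 12537 genes called lower and 1.91% higher. Agxt2 was at 129.6, 119, 105 and 116 CPM in young and 72.7, 138, 70.5 and 148 CPM in old liver, with the old libraries split on both sides of the young ones (log2 fold change -0.13, SE 0.25, edgeR adjusted p = 0.92). Slc2a2 was at 302, 231, 220.1 and 183 CPM in young and 111, 246, 144 and 236 CPM in old liver (-0.35, SE 0.27, adjusted p = 0.672 in edgeR). Slc4a4 was at 80.6, 90.1, 101 and 53.6 CPM in young and 52.8, 104, 101 and 97.1 CPM in old liver (0.12, SE 0.25, adjusted p = 0.926 in edgeR). Old liver replicate 1 was the lowest old library for Slc2a2 and Slc4a4, and its length index was -1.13, against 0.26 to 0.38 in the other old liver libraries. The part of that index in these values was not tested.

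The difference between the 2 age changes, liver minus kidney, was fitted jointly over 15036 genes. It was 1.11 for Agxt2 (SE 0.31, edgeR adjusted p = 0.0866), 1.17 for Slc4a4 (SE 0.36, adjusted p = 0.12) and 0.36 for Slc2a2 (SE 0.33, adjusted p = 0.675), so none of the 3 was called, beside 0.871% of genes called with a positive difference. The unadjusted p was under 0.05 for Agxt2 and Slc4a4, and DESeq2 called these 2 (adjusted p of 0.0203 and 0.0245), beside 2.25% of all genes. Without old liver replicate 1, edgeR called both as well (adjusted p of 0.026 and 0.0328), beside 1.67% of all genes. Without old liver replicate 3 it called Agxt2 (adjusted p = 0.035 in edgeR), beside 0.689%.

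With 3C, liver showed no call among the 4 genes tested in edgeR or DESeq2, and edgeR called 0.0% of 13042 genes. Agxt2 was at 118 ± 34.2 CPM with DMSO and 147 ± 12.7 CPM with 3C, Slc2a2 at 171 ± 31.0 and 193 ± 44.5 CPM, and Slc4a4 at 79.8 ± 22.3 and 89.8 ± 9.62 CPM (SD, n = 4 each). The fourth gene, Lrp2, had an unadjusted p under 0.05 on very few reads, at 0.40 to 0.81 CPM with DMSO and 0.62 to 6.65 CPM with 3C. Its highest value was in 3C replicate 4, which also held 11 reads of Slc5a2 and 7 of Slc5a12, genes with no read in the other 7 liver libraries of this comparison. The 5 markers of the thick ascending limb and distal tubule summed to 6.17 CPM in that library, with 1 of them at 0, and to at most 0.557 CPM in the other 7. Their part in the Lrp2 value was not tested. In the joint fit of the 3C changes of both tissues 0.0% of 15526 genes were called by edgeR, DESeq2 called none of them either, and for Agxt2, Slc2a2 and Slc4a4 no unadjusted p was under 0.05. In fibroblasts Slc9a3 and Slc13a1 had no read, and the highest value of any of the 10 genes was 6.51 CPM, for Slc4a4.

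ATAC-seq peaks, called by the authors in each library, were read at the start site of each gene as the highest fold enrichment over local background of any peak within 1 kb. All 10 genes had such a peak in all 6 kidney libraries, as did 53.6% of all annotated genes. For Slc13a1 the region over the start itself was called in 2 young libraries and 1 old library only. A separate region centred 1166 bp after its start, which reached into the window, was called in all 6. In liver, Agxt2, Slc2a2, Slc4a4 and Slc9a3 had one in all 6 libraries, and the other 6 genes in at most 1 of 6. Slc9a3 thus had a promoter peak in liver (2.36 to 4.76) without a single read of RNA in any of the 16 liver libraries.

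In kidney the promoter peak was lower in every old library than in every young one for 2 of the 10 genes, Agxt2 and Cubn, beside 8.74% of 16816 genes with a peak. Every old kidney library also held fewer distinct peak intervals (93072 to 108970) than every young one (115836 to 128395). The part of this difference in the promoter peaks and in the regions below was not tested. For Agxt2 the fold enrichment was 10.4, 8.62 and 8.36 in young and 7.84, 6.03 and 5.27 in old kidney. For Cubn it was 8.004, 8.55 and 5.84 in young and 5.35, 5.47 and 5.45 in old kidney. Each had an exact two-sided permutation p of 0.1, the smallest that 3 against 3 libraries can give. By the −log10 q of the peaks in place of the fold enrichment, Agxt2 alone kept the pattern, and with the fold enrichment divided by the library median Slc9a3 showed it as well, which made 3 genes. The shares of all genes under these other measures were not counted. Agxt2 also had the lower peak in every old liver library, where the mean went from 4.33 ± 0.67 to 2.88 ± 0.17 (SD, n = 3 per age), and so did Slc2a2 (3.26 ± 0.06 and 2.82 ± 0.38), beside 5.72% of genes. The other 8 genes overlapped between the ages in kidney. Slc5a8 and Slc5a12, both lower in RNA, had means of 3.23 ± 0.82 and 3.97 ± 0.67 in young and 3.05 ± 0.49 and 4.19 ± 0.80 in old kidney. Lrp2 had its higher mean in old kidney (5.63 ± 1.45, against 4.65 ± 1.57).

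**Figure D4:**
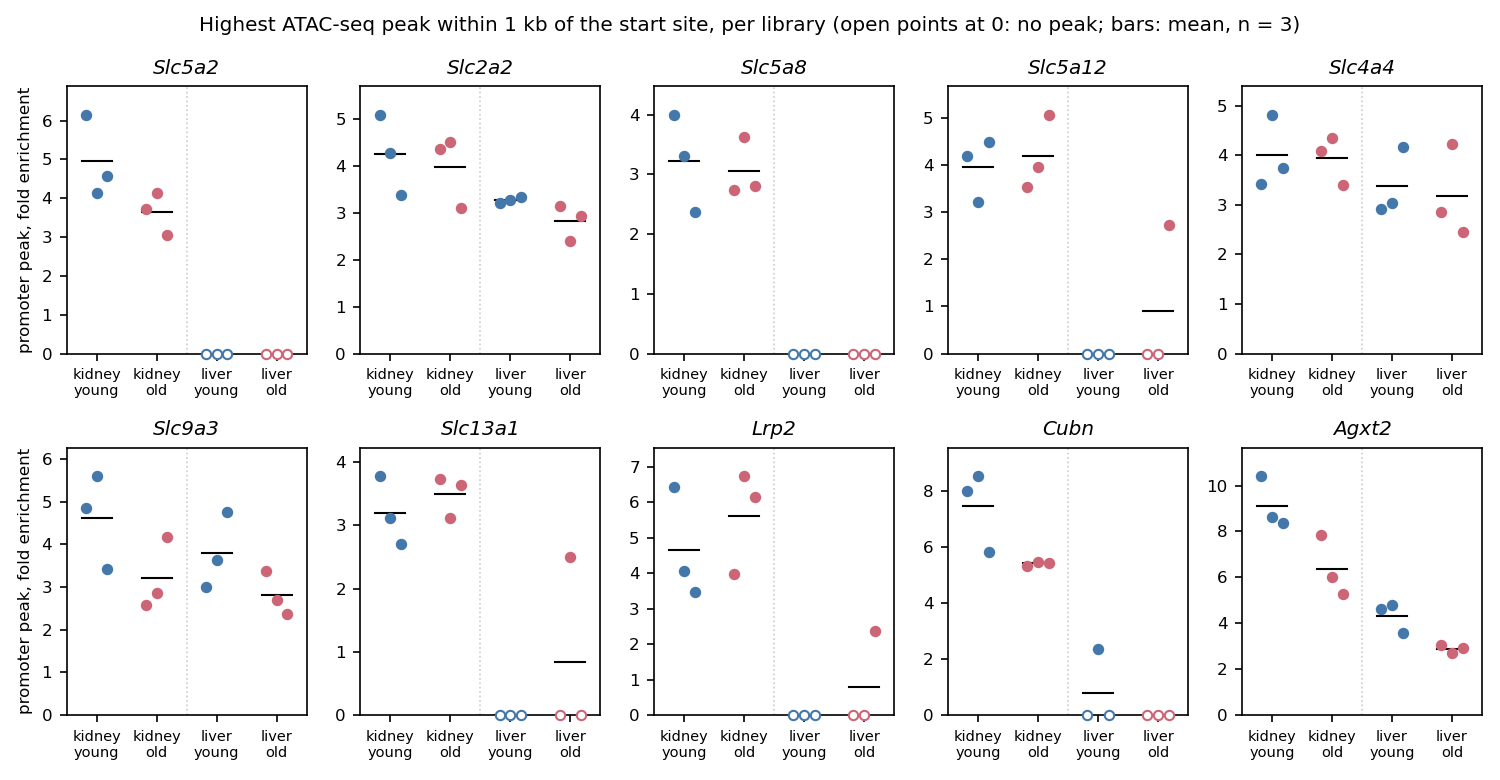
Fold enrichment (vertical axes from 0) of the highest ATAC-seq peak within 1 kb of each gene's start site in every kidney and liver library, with bars at the mean (n = 3) and open points at 0 where no peak was called. Kidney points are above 0 for all 10 genes, and only Agxt2 and Cubn have all old kidney points below all young ones.

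The 250 bases before the start were available from RefSeq (GRCm38.p6) for 7 of the 10 genes, in 9 windows, and none was available for Slc5a2, Slc5a12 and Slc13a1. The 2 promoters with lower peaks in old kidney are shown first, each as read on its own gene's strand. Capitals mark letters of the motifs that were searched on both strands, which were the HNF1 core GTTAAT, the HNF4 core CAAAGTC, the AP-1 core TGANTCA, the GC box GGGCGG and the TATA box TATAAA.
Agxt2 (plus strand, chr15:10358283-10358532): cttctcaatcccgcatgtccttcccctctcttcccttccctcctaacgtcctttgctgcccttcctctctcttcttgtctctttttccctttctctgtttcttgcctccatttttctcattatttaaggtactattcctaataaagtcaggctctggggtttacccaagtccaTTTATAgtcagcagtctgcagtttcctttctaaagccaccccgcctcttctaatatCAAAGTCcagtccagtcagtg
Cubn (minus strand, chr2:13491877-13492126): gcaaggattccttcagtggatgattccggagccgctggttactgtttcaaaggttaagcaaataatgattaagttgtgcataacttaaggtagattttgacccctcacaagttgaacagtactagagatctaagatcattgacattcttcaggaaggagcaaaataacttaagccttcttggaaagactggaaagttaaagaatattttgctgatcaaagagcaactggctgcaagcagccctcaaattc
The Agxt2 window held the HNF4 core from position -21 to -15 before its start, and a second RefSeq start 46 bases on has a window with the same match. These were the only windows of the 9 with this motif, which 3.842% of 32851 windows of the same length held. Agxt2 also held the TATA letters on the opposite strand, as 12.368% of windows did. The Cubn window held none of the motifs, and neither HNF1 nor AP-1 letters occurred in any of the 9 windows, beside 6.432% and 6.749% of all windows. A GC box stood in 4 of the 9 windows, those of Lrp2, Slc5a8, Slc9a3 and the first start of Slc4a4, beside 32.742% of all. A match says only that these letters are present.

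Slc4a4 has 2 RefSeq start sites, 140.7 kb apart, and they differed between the tissues. The windows before them are shown because of this difference, the first start above the internal one.
Slc4a4 first start (plus strand, chr5:88887010-88887259): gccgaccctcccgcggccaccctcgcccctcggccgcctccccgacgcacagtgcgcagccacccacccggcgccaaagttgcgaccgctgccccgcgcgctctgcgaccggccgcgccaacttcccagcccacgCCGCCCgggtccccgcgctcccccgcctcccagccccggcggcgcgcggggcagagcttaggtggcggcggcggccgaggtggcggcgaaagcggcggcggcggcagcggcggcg
Slc4a4 internal start (plus strand, chr5:89027716-89027965): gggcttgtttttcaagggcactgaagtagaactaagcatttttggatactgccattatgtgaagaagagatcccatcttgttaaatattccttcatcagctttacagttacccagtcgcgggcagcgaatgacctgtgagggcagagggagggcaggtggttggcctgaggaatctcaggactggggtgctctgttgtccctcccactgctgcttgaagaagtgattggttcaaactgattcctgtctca
The first window is 82.0% G and C with 44 CpG pairs, and the internal one 48.8% with 3. Within 1 kb of the first start a peak was called in all 6 kidney libraries (3.40 to 4.82) and all 6 liver libraries (2.45 to 4.22). Near the internal start a peak was called in all 6 kidney libraries, at 6.68, 6.60 and 4.88 in young and 6.46, 5.40 and 7.50 in old kidney, and in 0 of 6 liver libraries. The old and young values at the internal start overlapped, while the RNA of the gene was lower in old kidney. The gene counts sum over both starts, so RNA from each of them was not measured apart.

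**Figure D5:**
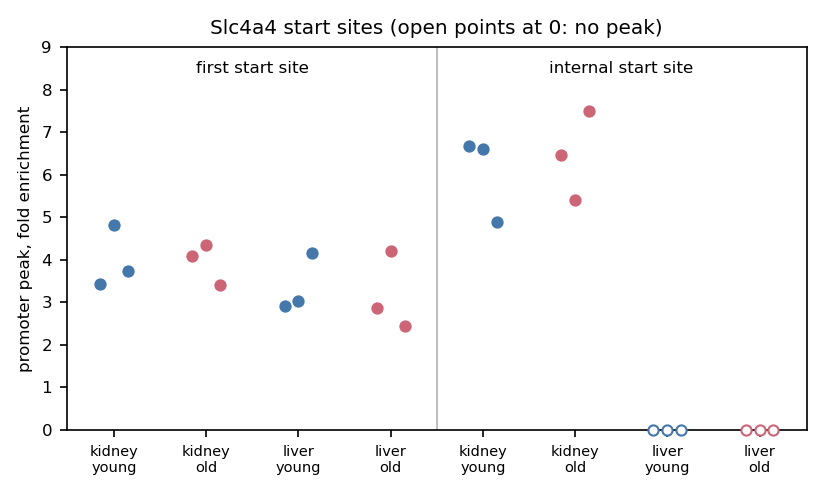
Fold enrichment (vertical axis) of the highest ATAC-seq peak within 1 kb of the first and of the internal RefSeq start site of Slc4a4, per library, by tissue and age (n = 3 each, open points at 0 where no peak was called). The internal start has values of 4.88 to 7.50 in kidney and no peak in liver, and the first start has a peak in every library.

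Along the 10 genes and the 10 kb before each, the peaks of the 6 kidney libraries merged into 318 regions, of which 52 were present in all 6 libraries. With age 2 regions were gained, present in every old and no young library, and none was lost, beside 0.323% of 255698 regions gained and 1.52% lost in the whole kidney set. The gained regions lay in an intron of Cubn (chr2:13407235-13407632, 84.4 kb after its start) and in an intron of Slc4a4 (chr5:89033246-89034168, 5.7 kb after the internal start). These counts moved with single libraries. Without old replicate 2 there were 7 regions gained, and without young replicate 2 there were 7 lost. Leaving out a library relaxes the rule for gained and lost regions everywhere. The shares over all regions in these settings were not counted, so these moves are not read as a result about the 10 genes.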

How the data were processed

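For RNA-seq, the authors removed adapters with Trimmomatic 0.39, mapped reads with HISAT2 2.2.1 (build mm10, that is GRCm38) and deposited raw counts per gene from HTSeq 0.12.4, made with the option that ignores strand. ATAC-seq peaks were called by the authors library by library (Bowtie2 alignments, MACS2). Of the values deposited per peak, fold enrichment is a ratio to local background, and significance is given as −log10 p and −log10 q. These lists hold only called peaks, so a missing peak is no measured 0, and the read depth behind a peak is not given in them.

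Each comparison of RNA-seq groups, taken from the labels, had a separate model in edgeR 4.0.16 under R 4.3.3, with TMM factors, filterByExpr (minimum count 10) and the two-sided quasi-likelihood F test, adjusted over all genes tested. Lines that tally reads outside genes were left out, and those outside any annotated gene came to 6.0% to 19.5% of the tallied reads of a library. A fold passed above 2 or below 0.5. Log2 CPM used a prior count of 2. GENCODE vM21 gave positions and exon lengths for 24534 of 24984 gene names. Repeated peak intervals were taken once, and overlapping kidney peaks were merged into regions. The edgeR fit, the separation of promoter peaks by age and the calling of gained and lost regions were tested on simulated data. Peaks and plots used Python 3.11.15, scipy 1.17.1 and matplotlib 3.10.9. Intervals and floors cover counting error only.

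The 10 genes, 5 pathway lists and 9 marker lists were chosen with earlier results of these data known. Besides the 10 genes, the text names from each list up to 3 genes per kidney comparison with the smallest p among those past the adjusted p, and the 3 genes nearest in pattern to Agxt2, to Slc5a8 and to the mean of the 10. Alternatives for RNA were DESeq2 1.42.0, RLE factors, no low-count filter, a mean of at least 1 CPM, each library left out, the replicate number as a block, and a correction for exon length and GC content with and without that block. Alternatives for peaks were −log10 q as the measure, a minimum −log10 q of 5, windows of 500 and 2500 bp, equal numbers of peaks, division by the library median, a 50% overlap and each library left out. Total counts as library sizes were added after seeing the data.

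Same-numbered libraries deviated together in all 4 pairs of young kidney and young liver (correlation 0.195 to 0.643) and of 3C kidney and 3C liver (0.151 to 0.278), a pairing read from the data and not stated in the labels. In the other 6 pairs of groups checked, at most 2 of 4 pairs had a correlation above 0.1.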

Additional observations from a re-analysis of the deposited data

Results flagged for a closer look

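Of 59 groups of 4 libraries, 5 had a library that stood far from the other 3 by Dixon's criterion at 95%, which chance meets in about 1 of 20 groups. In 3C kidney, replicate 2 had the low value of Agxt2 (50.1 CPM) and replicate 1 the low value of Lrp2 (2528 CPM). In old kidney, replicate 2 had the high value of Slc5a12 (327 CPM), in the library that carried hepatocyte transcripts. Slc5a12 itself had no read in the 8 young and old liver libraries. The part of the hepatocyte transcripts in the Slc5a12 value was not tested. In old liver, replicate 1 had the low value of Slc4a4 (52.8 CPM), beside the lowest length index of the liver libraries. The part of that index in the Slc4a4 value was not tested. In 3C liver, replicate 4 held 0.659 CPM of Slc5a2, a gene with no read in the other 15 liver libraries.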

How the results depend on the processing

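In the kidney age comparison, 141 of the 160 values of the 10 genes under the 16 alternative fits kept their direction and their side of the threshold, 12 passed the threshold newly, 5 no longer passed it and 2 turned. The 2 were Slc13a1 at 0.0398 after the correction for exon length and GC content and at 0.0582 with the replicate block added to it. Against 6 genes past the adjusted p and 3 past a fold of 2 as well, leaving out 1 library gave 5 to 9 and 2 to 6, with the highest counts without old replicate 2, and 5 past a fold of 2 without young replicate 4 and with DESeq2. Over all genes, 59 were lower past the adjusted p and a fold of 2 as fitted, and 105 with DESeq2. Leaving out 1 library gave 34 to 337 such genes, with 337 without old replicate 2 and 115 without young replicate 4. In the young tissue comparison, total counts turned Agxt2 to 0.169. Ranges over the main fit and all alternative fits crossed 0 for Slc9a3 with 3C in kidney (-0.0273 to 0.125), for Agxt2 (-0.33 to 0.0259) and Slc4a4 (-0.0084 to 0.313) with age in liver, for Slc4a4 with 3C in liver (-0.0132 to 0.276) and for the 3C difference between tissues in Agxt2 (-0.107 to 0.229), none past the adjusted p. The age difference between tissues was called in 0 to 2 genes when 1 library was left out and in 2 by DESeq2. By −log10 q, 1 promoter peak was lower in every old kidney library, against 2 by fold enrichment, 3 with division by the library median and 2 to 3 when 1 library was left out. There were 0 regions gained and 3 lost at a −log10 q of at least 5, 4 gained with equal numbers of peaks, and 1 to 7 gained and 0 to 7 lost when 1 library was left out. The shares over all genes and all regions in these peak settings were not counted, so the moves are not read as a result about the 10 genes. The causes were not tested.

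Over all genes, 1182 were higher and 487 lower in old kidney. The lower count was 1385 with DESeq2, 2208 with the length and GC correction, 1267 with that and the block, and 219 with total counts. Leaving out 1 library moved the lower count by over 1.5 times whichever library it was, from 138 without young replicate 2 to 1770 without old replicate 2, and the higher count to between 695 and 1670, with 695, 714 and 709 without young replicates 2 and 3 and old replicate 4. With 3C in kidney, edgeR gave 4 higher and 25 lower without 3C replicate 2, against 0. In liver with age DESeq2 gave 619 higher and 239 lower against 239 and 70, leaving out 1 library gave 48 (without young replicate 3) to 453 higher (without old replicate 1) and 29 to 135 lower (the same libraries), and for the age difference between tissues 339 and 406 against 131 and 127, where leaving out 1 library gave 49 to 255 positive calls, the ends without young kidney replicate 2 and old liver replicate 1. In the young tissue comparison total counts gave 10444 higher and 1580 lower in kidney against 4941 and 4246.

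With the replicate block, 5 of the 10 genes were called lower in old kidney, Slc5a2 no longer (adjusted p = 0.0813), and over all genes 844 were higher and 213 lower. The numbers did not pair young with old kidney, where 1 of 4 same-numbered pairs had a correlation above 0.1 and 1 young library was nearest to its own number. Without the length and GC correction, the block changed no other call among the 10 genes in any comparison. In liver with age it left 91 genes higher and 48 lower, and for the age difference between tissues 53 and 49. Of the 7 genes near 0 in liver, 7 were too low to be tested there with age and 6 with 3C.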
